A study of Mus musculus with 12 samples.

Results

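Complement and coagulation factors are plasma proteins that hepatocytes make and secrete, and 41 of their genes are described here. They were taken by gene symbol from a written list, out of 41128 genes in the count table, by a rule that uses no measured value. The list itself was written with earlier results of these data known. All 41 were found, and all 41 passed the filter on low counts in both the hepatocyte and the liver data. By role they comprised 7 vitamin K-dependent proteins, 4 genes of the contact system, 5 of fibrin formation, 7 of fibrinolysis and serpin inhibition, 5 of complement initiation, 5 of the C3 convertases with properdin, 6 of terminal complement and 2 complement regulators.

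The series holds 12 libraries of mouse poly(A) RNA in 5 groups. Hepatocytes were purified from mice carrying the Lats1tm1.1Jfm/RjoJ and Lats2tm1.1Jfm/RjoJ alleles, which are floxed alleles of the LATS kinases that restrain YAP and TAZ. Of these, 3 libraries came from untreated mice and 3 from peritumoral tissue, all titled wild type, and the labels name no Cre. Tumours had been started by hydrodynamic injection, at an age of 8 weeks, of 1 µg of SB11 (a Sleeping Beauty transposase), 20 µg of myc-NICD (the active Notch fragment) and 4 µg of myr-ha-Akt (a membrane-bound active kinase), and they grew for 8 weeks. The label for age reads 8 weeks in every sample, so the peritumoral mice may be older than their controls. The labels do not name the plasmids' promoters. The other 6 libraries came from CD-1 IGS mice from Charles River: 2 control, 2 taken 24 h and 2 taken 48 h after 1 intraperitoneal injection of thioacetamide (TAA), a liver toxin, at a dose the labels do not state. The design text calls these 6 livers, and they are called livers here, while their labels describe hepatocytes selected on a Percoll gradient. The labels do not tie each library to an animal of its own, and the p-values thus measure only the spread between these libraries, which may be technical.

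In blood clotting, factor VII with tissue factor, or the contact system, activates factor X, which turns prothrombin into thrombin. Thrombin cuts fibrinogen, a protein of Fga, Fgb and Fgg chains, into fibrin, and plasmin dissolves it again. The antithrombin group of serpins and the protein C pathway hold the cascade in check. Complement starts from antibody through C1, from sugars through the mannose-binding lectins and their MASP proteases, or from C3 itself, and all routes join at a C3 convertase. C5 to C9 then assemble a pore in the target membrane. The liver makes most of these proteins, and fibrinogen is a classic acute phase protein that interleukin-6 raises through STAT3.

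Total counts ran from 16228747 to 18522324 in the hepatocyte and from 9640845 to 13692235 in the liver libraries. The 41 genes took between 3.43% and 5.94% of the counts in hepatocyte libraries and between 5.10% and 8.92% in liver libraries. In livers the share was 6.20% and 6.34% in the controls, 8.92% and 7.38% at 24 h and 5.10% and 5.89% at 48 h. Levels below are CPM (counts scaled to a common library total) with TMM factors, which align libraries by a trimmed mean of their gene ratios, and they were scaled within the 6 hepatocyte or the 6 liver libraries. Peritumoral replicate 2 stood apart: it held the lowest CPM of the 6 hepatocyte libraries for 36 of the 41 genes (29 when counts are divided by the library total alone), and untreated replicate 3 held the highest for 32 (17 by the library total). The 9 biliary markers summed to 10320 RPM in peritumoral replicate 2, 1095 and 760 RPM in the other peritumoral and 35.7 to 50.9 RPM in the untreated libraries. Peritumoral replicate 2 was also the only hepatocyte library with Xist above 3 counts (527 RPM) and without Ddx3y reads, and all 6 liver libraries held Xist (196 to 456 RPM) and no Ddx3y reads. All 12 hepatocyte marker genes listed were detected in both kinds of library, with summed levels of 93180 to 158000 RPM in hepatocytes and 137200 to 196200 RPM in livers. In such bulk samples fewer cells of a type and less RNA per cell cannot be told apart.

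The promoters of the 3 fibrinogen genes, which lie side by side on chromosome 3 (positions 83007724 to 83049863, build GRCm38), are shown because their transcripts stood highest at 24 h after TAA while most other genes of the set fell. That of C4bp is shown because it rose at 24 h and fell at 48 h, and that of F10 because it fell at both times. Each is the 250 bases before the RefSeq transcription start, 5′ to 3′ on the gene's strand, from RefSeq on GRCm38.p6. Capitals mark CTGGGA, the core letters of the interleukin-6 response element bound by STAT3, and GTTAAT, core letters of the HNF1 site, on either strand, so that a GTTAAT on the opposite strand reads ATTAAC. Fgg is at chr3:83007474-83007723 (plus strand), Fga at chr3:83025903-83026152 (plus strand), Fgb at chr3:83049864-83050113 (minus strand), C4bp at chr1:130661619-130661868 (minus strand) and F10 at chr8:13037058-13037307 (plus strand).
Fgg: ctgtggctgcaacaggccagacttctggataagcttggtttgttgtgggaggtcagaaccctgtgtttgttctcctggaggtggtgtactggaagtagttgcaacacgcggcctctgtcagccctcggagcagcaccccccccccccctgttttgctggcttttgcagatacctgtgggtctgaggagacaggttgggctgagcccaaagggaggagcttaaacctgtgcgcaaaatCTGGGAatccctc
Fga: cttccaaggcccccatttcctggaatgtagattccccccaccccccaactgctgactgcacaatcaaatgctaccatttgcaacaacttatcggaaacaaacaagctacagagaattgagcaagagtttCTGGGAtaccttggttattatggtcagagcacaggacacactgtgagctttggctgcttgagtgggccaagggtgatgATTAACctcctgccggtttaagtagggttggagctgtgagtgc
Fgb: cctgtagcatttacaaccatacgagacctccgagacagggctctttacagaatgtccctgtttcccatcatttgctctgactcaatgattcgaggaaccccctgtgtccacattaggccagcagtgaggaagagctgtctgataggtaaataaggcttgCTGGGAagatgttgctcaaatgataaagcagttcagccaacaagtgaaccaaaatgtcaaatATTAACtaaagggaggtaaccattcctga
C4bp: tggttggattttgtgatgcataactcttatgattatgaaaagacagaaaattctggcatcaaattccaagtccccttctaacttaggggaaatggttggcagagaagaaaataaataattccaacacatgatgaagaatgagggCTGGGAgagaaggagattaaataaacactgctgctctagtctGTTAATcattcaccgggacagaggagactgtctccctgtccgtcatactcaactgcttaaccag
F10: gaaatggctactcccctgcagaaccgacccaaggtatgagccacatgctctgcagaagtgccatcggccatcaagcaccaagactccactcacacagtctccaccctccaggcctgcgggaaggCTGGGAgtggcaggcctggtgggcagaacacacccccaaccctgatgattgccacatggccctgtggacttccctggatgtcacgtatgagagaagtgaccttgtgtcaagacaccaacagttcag

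RefSeq windows of 300 bases, 250 before to 50 after the start, were matched for 32 of the 41 genes. CTGGGA, searched on both strands, was in 18 of these 32 (56.2%) and in 31.5% of 27025 promoters of all genes. The matches shown in the 3 fibrinogen genes and C4bp lay before the start, at -13 to -8 in Fgg, -121 to -116 in Fga, -91 to -86 in Fgb and -106 to -101 in C4bp, and in F10 at -126 to -121. Fgb held a further match on the opposite strand after the start, at 45 to 50, which is outside the bases shown. GTTAAT was in 12 of 32 (37.5%) and in 7.20% of all promoters, and no match of one overlapped a match of the other in the windows shown. TTCNNNGAA, the STAT palindrome, was in 8 of 32 (25.0%) against 8.47%, and TTGCNNAAT, a C/EBP motif, in 4 of 32 (12.5%) against 2.42%. TATAAA was in 4 of 32 (12.5%) against 14.2%. Of the 18 genes with CTGGGA, 3 rose and 10 fell at 24 h after TAA, and of the 14 without it, 0 rose and 9 fell. Of the 12 genes with GTTAAT, 3 rose and 6 fell at 24 h, and of the 20 without it, 0 rose and 13 fell. Both motifs were thus present in genes that moved either way, and their part in the changes was not tested.

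Levels between genes are compared per kilobase of exon, with all 12 libraries scaled together. C3, the central complement protein, and the fibrinogen chains were the 4 highest in 4 of the groups, and in peritumoral hepatocytes Vtn (1068) came before Fgb (1047). In control livers the order was C3 at 3893, Fga at 3528, Fgg at 3448 and Fgb at 2178 CPM per kb, followed by Vtn at 1776 (vitronectin, an adhesive protein that binds the membrane attack complex and a fibrinolysis inhibitor), Plg at 1345 and Kng1 at 1176 (kininogen). In untreated hepatocytes Fga at 2127, Fgg at 2005, C3 at 1934 and Fgb at 1547 CPM per kb stood within the spread of their libraries. At the low end in every group were Klkb1, C2 and Cfb, joined in livers by C6 and in control livers and untreated hepatocytes by Cfp. Klkb1 stood at 3.80, Cfb at 4.75 and Cfp at 7.23 CPM per kb in untreated hepatocytes. The identifier that the count table pairs with Klkb1 is named Gm45753 in GENCODE M21 and shares 93.7% of its exon length with Klkb1 and Cyp4v3, and Cfb shares 79.5% and C2 46.9% with the readthrough gene Gm20547 (0 counts in every library) and, for C2, Zbtb12. The levels of these 3 genes, and their changes below, are therefore uncertain. Likewise Masp2 shares 54.9% with Tardbp and Serpinc1 34.4% with Zbtb37 on the opposite strand, and C4b and C1ra have the near-identical copies C4a and C1rb.

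**Figure D1:**
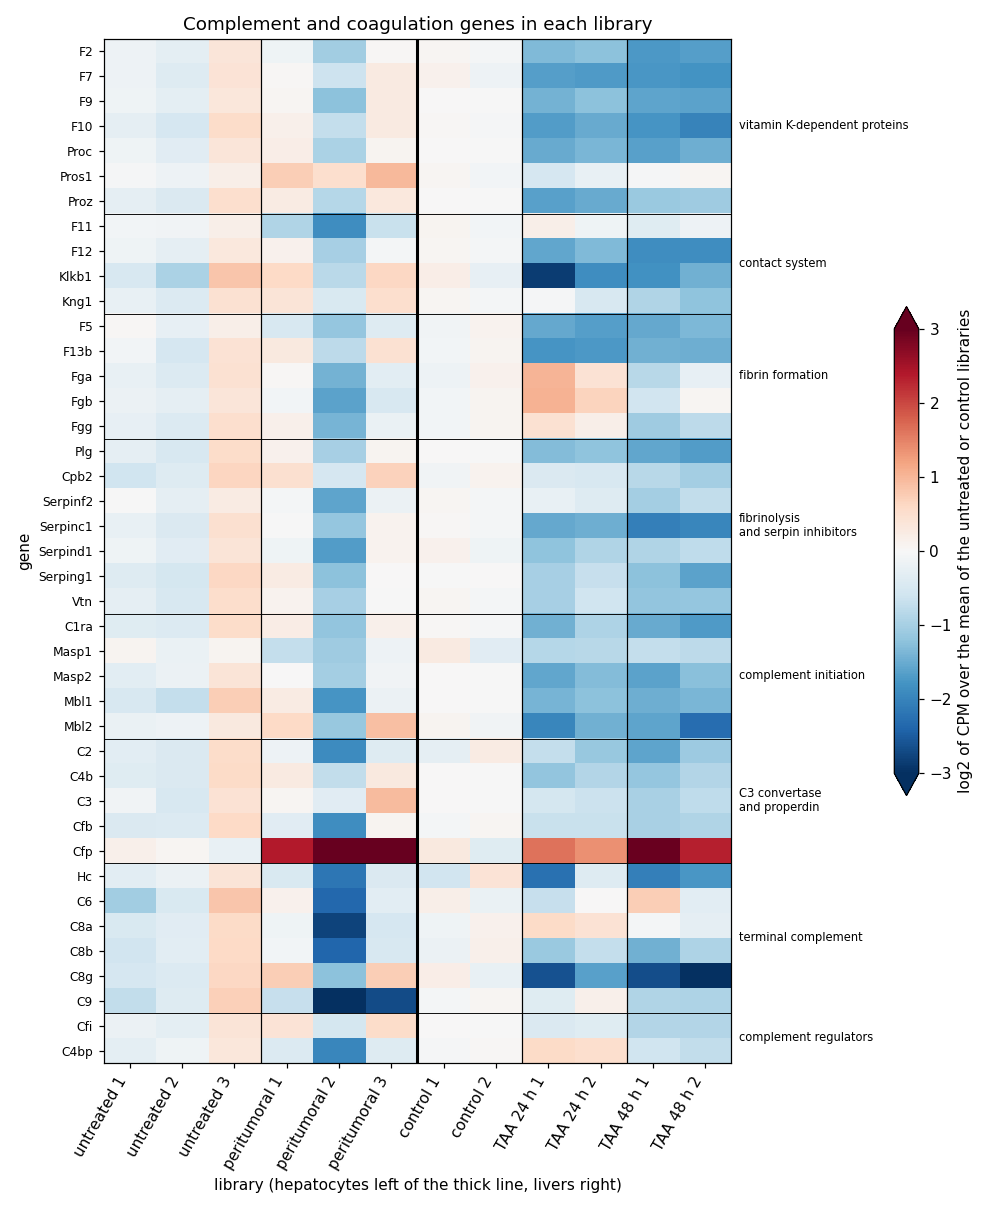
Level of each of the 41 genes (rows, by role) in each of the 12 libraries (columns) as the log2 of its CPM over the mean of the untreated hepatocytes (left of the thick line) or of the control livers (right), with the colour scale clipped at -3 and 3. The TAA columns are blue for most rows apart from Cfp and, at 24 h, the fibrinogen rows, C8a and C4bp, and peritumoral replicate 2 is blue in 39 of 41 rows.

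After TAA most of the set was lower than in control livers. At 24 h, 26 of the 41 genes fell and 3 rose, beside 20.5% of 13497 tested genes that fell and 21.3% that rose, 41.8% together (edgeR, adjusted p under 0.05). At 48 h, 33 fell and 1 rose, beside 23.9% and 25.0% of all tested genes, 48.9% together. The median log2 fold change of the 41 was -0.91 at 24 h and -1.16 at 48 h, and that of all tested genes 0.02 and -0.03. The summed share of all counts that the 41 took was higher at 24 h (8.92% and 7.38%) than in the controls (6.20% and 6.34%). That sum weighs genes by their counts, and its rise lay in the fibrinogen chains. Mean CPM at 24 h and in the controls was 18000 and 10630 for Fga, 15060 and 8303 for Fgb and 9053 and 7221 for Fgg. The 24 h and 48 h comparisons use the same 2 control libraries. Groups of 2 libraries often do not overlap. At 24 h 38.3% of all tested genes did not overlap with the controls and were higher, and 35.8% were lower. At 48 h these shares were 37.5% and 38.9%. Scaling by library totals alone, in place of TMM, raised the median of all genes by 0.51 at 24 h and 0.71 at 48 h. Then 18 of the 41 fell and 7 rose at 24 h, beside 1228 of 13497 tested genes that fell and 6127 that rose. At 48 h 17 of the 41 fell and 4 rose, beside 971 tested genes that fell and 7661 that rose. Changes below are therefore relative to the bulk of genes. Fga, Fgb, Fgg, C8a, C8b, C6 and Hc are given in full because they are subunits of complexes with other genes named here, a choice made after their values were seen.

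**Figure D2:**
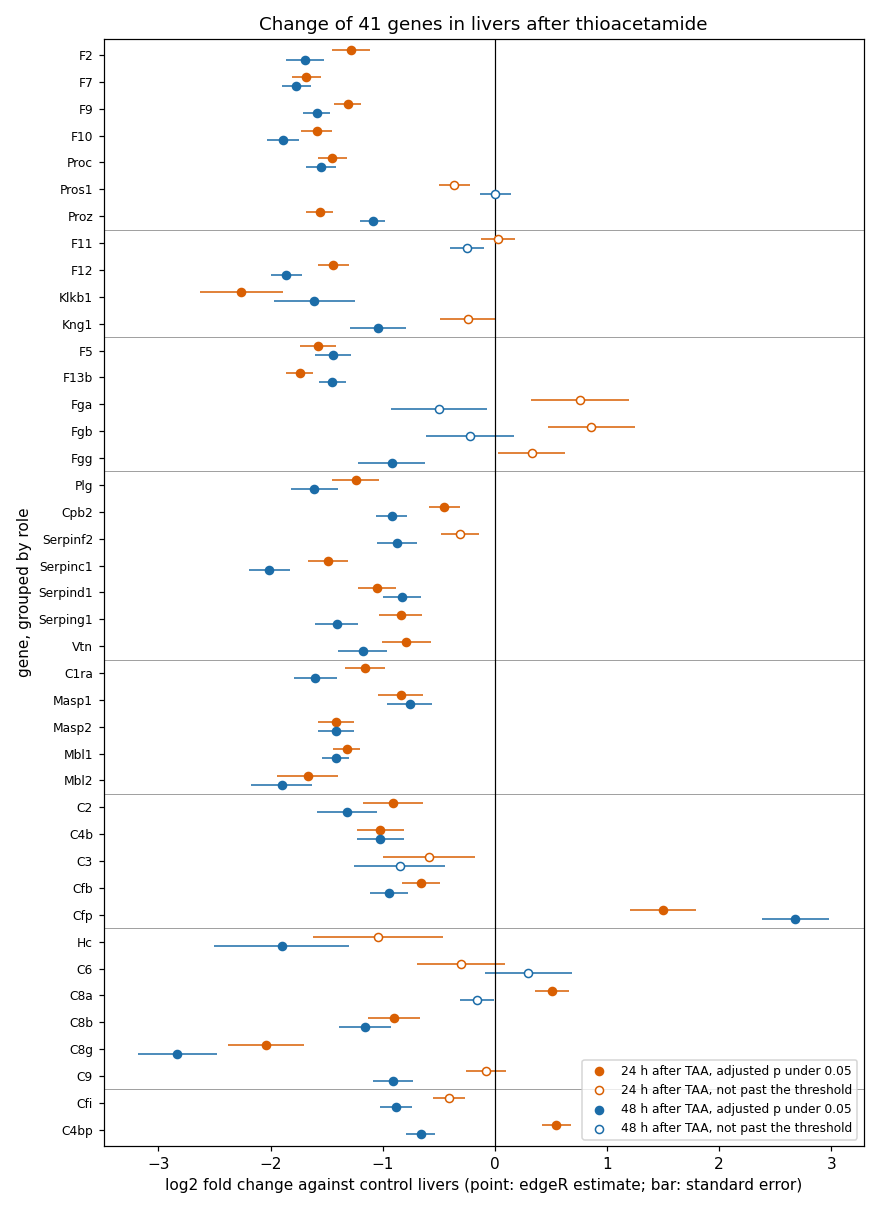
Log2 fold change against control livers (edgeR estimate, bar: standard error) of each gene 24 h (orange) and 48 h (blue) after TAA, with filled points for an adjusted p under 0.05. Most points lie left of 0, those of Cfp right of it, and Fga, Fgb, Fgg, C8a and C4bp lie right of 0 at 24 h and left of it at 48 h. Under scaling by library totals alone Fga (0.20), Fgb (0.49), C8a (0.55) and C4bp (0.05) lie right of 0 at 48 h as well.

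Of the 7 vitamin K-dependent proteins, which need carboxylated glutamates to bind membranes, 6 fell at 24 h and 6 at 48 h. F7, the protease that starts clotting with tissue factor, stood at 194 and 159 CPM in the controls, 56.1 and 54.2 at 24 h and 52.9 and 50.9 at 48 h. Its log2 fold change was -1.68 ± 0.13 (adjusted p = 0.000586) at 24 h and -1.77 ± 0.13 (adjusted p = 0.000298) at 48 h, and all 4 TAA libraries lay below both controls. F10, the protease that makes thrombin, went from 683 and 641 CPM to 207 and 233 at 24 h and 193 and 165 at 48 h, a log2 fold change of -1.59 ± 0.14 and -1.89 ± 0.14. F2, prothrombin, went from 3079 and 2860 CPM to 1190.0 and 1256 and then 895 and 943. Both TAA groups of F2 lay below both controls, by -1.28 ± 0.17 and -1.69 ± 0.17. F9, the haemophilia B factor, went from 387 and 378 CPM to 144 and 164 at 24 h and 128 and 126 at 48 h. Proc, protein C, which shuts off the cofactors F5 and F8, stood at 644 and 633 CPM in the controls and between 207 and 246 in the 4 TAA libraries. The groups did not overlap for F9 or Proc. The log2 fold change of F9 was -1.31 ± 0.12 at 24 h and -1.59 ± 0.12 at 48 h, and that of Proc -1.45 ± 0.13 at 24 h and -1.55 ± 0.13 at 48 h. Proz, protein Z, a cofactor in the inhibition of factor X, went from 489 and 485 CPM to 159 and 172 at 24 h, and it stood at 225 and 234 at 48 h (-1.56 ± 0.12 and -1.09 ± 0.11). F7, F10 and Proz lie next to each other on chromosome 8.

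Pros1, protein S, the cofactor of protein C, did not pass at either time. It stood at 69.3 and 62.8 CPM in the controls, 46.3 and 56.6 at 24 h and 64.1 and 68.4 at 48 h, with log2 fold changes of -0.36 ± 0.14 (adjusted p = 0.0769) and 0.004 ± 0.14 (adjusted p = 0.984). At 48 h its libraries lay within the range of the controls, and with library totals alone it passed as higher (0.71, adjusted p = 0.00391).

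The contact system, which starts clotting on charged surfaces and releases bradykinin, did not move as a block. F12, its first protease, fell from 809 and 755 CPM to 264 and 311 at 24 h and to 216 and 215 at 48 h, by -1.44 ± 0.14 (adjusted p = 0.000751) and -1.86 ± 0.14 (adjusted p = 0.000292). F11, its substrate, stood at 150 and 133 CPM in the controls, 159 and 131 at 24 h and 111 and 128 at 48 h, and passed at neither time, but with library totals alone it passed as higher at both (0.54 and 0.46, adjusted p = 0.0211 and 0.032). The counts given for Klkb1 belong to the identifier named Gm45753, which also overlaps Cyp4v3, so their change need not be that of Klkb1 itself. Klkb1, prekallikrein, fell from 10.4 and 7.62 CPM to between 1.25 and 3.34 in the TAA libraries, and the call at 48 h was lost without TAA 48 h replicate 1 (adjusted p = 0.0675). Kng1, the bradykinin precursor, stood at 3986.5 and 3656 CPM in the controls and 3727 and 2758 at 24 h, within a spread that overlapped, and it fell to 2060 and 1661 at 48 h (-1.04 ± 0.25, adjusted p = 0.0144). This call was lost without TAA 48 h replicate 2 (adjusted p = 0.0882).

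The fibrinogen chains were, per length, the most abundant transcripts of the set at 24 h (Fga 6480, Fgg 4688 and Fgb 4284 CPM per kb, with C3 at 2807), and stood apart from F13b and F5. F13b, the carrier subunit of the fibrin-crosslinking factor XIII, fell from 356 and 398 CPM to 111 and 114 at 24 h and to 139 and 138 at 48 h (-1.74 ± 0.12, adjusted p = 0.000393, and -1.45 ± 0.12, adjusted p = 0.000329). F5, the cofactor of factor X, fell from 1184 and 1363 CPM to 442 and 408 at 24 h and to 439 and 500 at 48 h (-1.58 ± 0.16 and -1.44 ± 0.16). In contrast, Fga stood at 9634 and 11620 CPM in the controls, 21587 and 14409 at 24 h and 5994 and 9013 at 48 h. Fgb stood at 7886 and 8720 CPM in the controls, 17014 and 13106 at 24 h and 5601 and 8666 at 48 h. Fgg stood at 6805 and 7637 CPM in the controls, 9934 and 8172 at 24 h and 3468 and 4163 at 48 h. Both 24 h libraries lay above both controls for all 3 chains, as they did for 38.3% of all tested genes. None of the 3 chains passed, at 0.76 ± 0.44 (adjusted p = 0.20) for Fga, 0.86 ± 0.39 (adjusted p = 0.122) for Fgb and 0.33 ± 0.30 (adjusted p = 0.413) for Fgg. Fga and Fgb passed at 24 h with DESeq2 (adjusted p = 0.0147 and 0.00187), and all 3 with library totals alone. At 48 h only Fgg passed, 1.89-fold lower (-0.92 ± 0.30, adjusted p = 0.0428), and the call was lost without either control or either 48 h library (adjusted p = 0.0883 to 0.193).

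Of the 7 genes of fibrinolysis and serpin inhibition, 6 fell at 24 h and 7 at 48 h. Serpinc1, antithrombin, the main inhibitor of thrombin and factor X, went from 3534 and 3308 CPM to 1185 and 1249 at 24 h and to 819 and 883 at 48 h. This was -1.49 ± 0.18 (adjusted p = 0.00143) and -2.01 ± 0.18 (adjusted p = 0.00042), without overlap. Plg, plasminogen, which is cut to plasmin, changed by -1.24 ± 0.21 at 24 h and -1.61 ± 0.21 at 48 h. Serpind1 (heparin cofactor II), Serping1 (C1 inhibitor, which also blocks the contact proteases), Vtn and Cpb2 (a carboxypeptidase that slows fibrinolysis) changed by -0.45 to -1.05 at 24 h and -0.83 to -1.41 at 48 h. Serpinf2, the plasmin inhibitor alpha-2-antiplasmin, did not pass at 24 h (-0.31 ± 0.17) and fell at 48 h (-0.87 ± 0.18). With library totals alone the estimate for Cpb2 at 24 h was 0.06, above 0.

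All 5 genes of complement initiation fell at both times. Mbl1, a mannose-binding lectin, stood at 203 and 199.97 CPM in the controls, 76.1 and 85.4 at 24 h and 73.1 and 77.9 at 48 h, by -1.32 ± 0.12 and -1.42 ± 0.12 (adjusted p = 0.00063 and 0.00033). Masp2, the lectin pathway protease that cuts C4 and C2, went from 252 and 252 CPM to 85.1 and 102 at 24 h and 82.6 and 105 at 48 h, -1.42 ± 0.16 at each time. Neither gene overlapped with its controls. Mbl2, the other lectin gene, changed by -1.67 ± 0.27 and -1.90 ± 0.27, C1ra, a protease of C1, by -1.16 ± 0.18 and -1.60 ± 0.19, and Masp1 by -0.84 ± 0.20 and -0.76 ± 0.20. The calls on Masp1 were lost without either library of the TAA group concerned (adjusted p = 0.066 to 0.0927).

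Of the C3 convertase genes, C2, C4b and Cfb fell at both times and C3 passed at neither. C3 stood at 20048 and 20007 CPM in the controls, 13805 and 12831 at 24 h and 10287 and 11899 at 48 h, so that every TAA library lay below both controls, at -0.59 ± 0.41 (adjusted p = 0.279) and -0.85 ± 0.41 (adjusted p = 0.127). Its standard error was wide although its libraries lay close together, and DESeq2 called both (adjusted p = 0.000221 and 5.41e-08). C4b, a component of the classical and lectin convertase, changed by -1.02 ± 0.21 at each time, C2 by -0.91 ± 0.27 and -1.32 ± 0.27, and Cfb, factor B of the alternative convertase, by -0.66 ± 0.17 and -0.94 ± 0.17.

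Cfp, properdin, which stabilises the alternative convertase and is known as a product of myeloid cells, was the member that rose at both times. It stood at 10.5 and 6.72 CPM in the controls, 26.7 and 22.1 at 24 h and 67.8 and 43.2 at 48 h. The log2 fold change was 1.50 ± 0.29 (adjusted p = 0.00821) at 24 h and 2.68 ± 0.30 (adjusted p = 0.000795) at 48 h, and the groups did not overlap. The call at 24 h was lost without TAA 24 h replicate 1 (adjusted p = 0.0531). Of 13 macrophage markers 7 rose at 24 h and 13 at 48 h, none fell, and their summed level was 179 and 108 RPM in the controls, 791 and 630.5 at 24 h and 1984 and 1337 at 48 h. Their part in the change of Cfp was not tested.

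The terminal complement genes split. C8g, the lipocalin chain of C8, fell from 461 and 346 CPM to 65.5 and 131 at 24 h and 63.8 and 49.8 at 48 h, by -2.04 ± 0.34 (adjusted p = 0.00449) and -2.83 ± 0.35 (adjusted p = 0.00108), and this 7.10-fold fall at 48 h was larger than that of any other member. C8b, the beta chain, went from 166 and 210 CPM to 86.5 and 115 at 24 h and 69.2 and 99.7 at 48 h (-0.90 ± 0.23 and -1.16 ± 0.23). C8a, the alpha chain, instead rose from 472 and 560 CPM to 764 and 702 at 24 h (0.51 ± 0.15, adjusted p = 0.0384) and stood at 496 and 428 at 48 h, which overlapped the controls. The 3 chains form 1 protein, C8, and their transcripts thus moved in different directions at 24 h. The rise of C8a was lost when any 1 of the 6 liver libraries was left out (adjusted p = 0.0525 to 0.162). C8a and C8b lie next to each other on chromosome 4 on opposite strands. Hc, the gene of C5, varied within groups, at 645 and 1262 CPM in the controls, 200.4 and 730 at 24 h and 230.0 and 282 at 48 h, and passed at 48 h only (-1.90 ± 0.60, adjusted p = 0.0363). C9, the pore-forming subunit, stood at 423 and 464 CPM in the controls, 348 and 492.5 at 24 h and 236 and 235 at 48 h (-0.91 ± 0.18 at 48 h, adjusted p = 0.00663). C6 was low in all 6 livers, between 6.76 and 18.2 CPM, and passed at neither time.

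C4bp, which binds C4b and speeds the decay of its convertase, rose from 579 and 602 CPM to 881 and 843 at 24 h and fell to 392 and 354 at 48 h. The changes were 0.55 ± 0.13 (adjusted p = 0.0177) and -0.66 ± 0.13 (adjusted p = 0.00679), and the 3 groups did not overlap, but with library totals alone the change at 48 h was 0.05, above 0. The rise was lost without control replicate 1 or 2 or TAA 24 h replicate 1 (adjusted p = 0.0585 to 0.0729), and the fall without TAA 48 h replicate 2 (adjusted p = 0.0582). Cfi, factor I, the protease that uses C4bp as a cofactor, stood at 1303 and 1282 CPM in the controls, 951 and 998 at 24 h and 702 and 704 at 48 h. It did not pass at 24 h (-0.41 ± 0.14, adjusted p = 0.0565) and fell at 48 h (-0.88 ± 0.14, adjusted p = 0.00299).

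**Figure D3:**
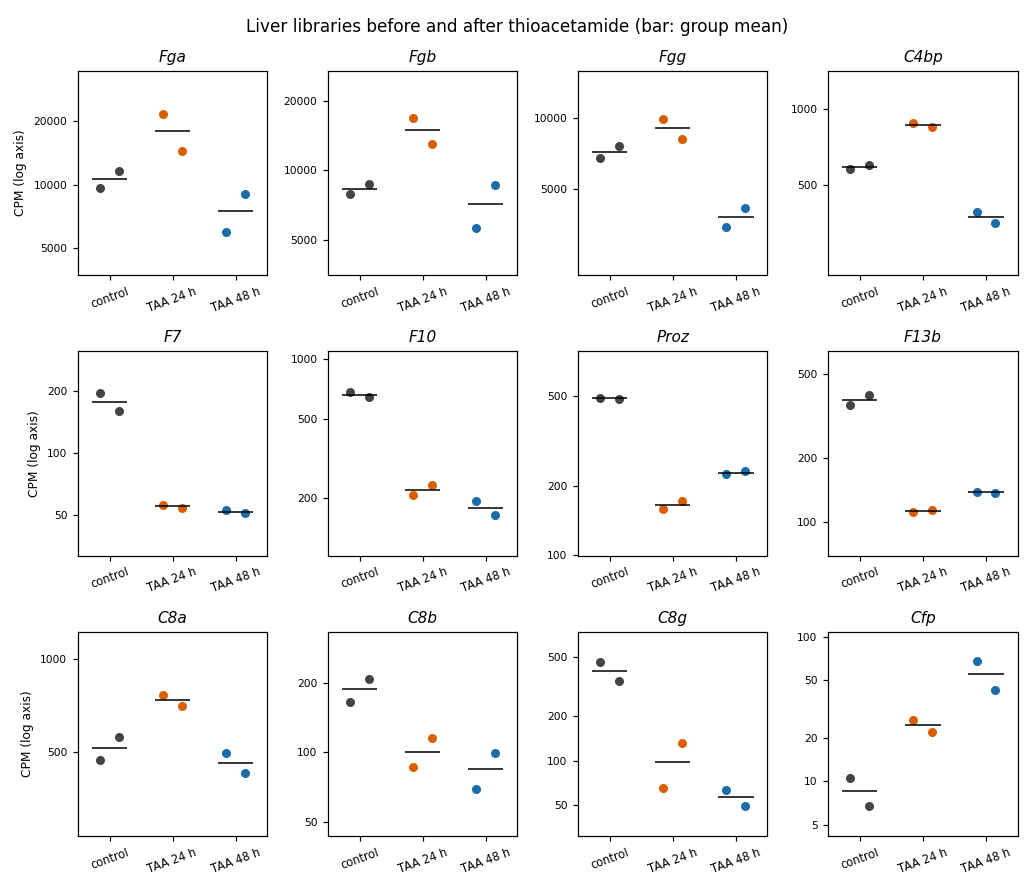
CPM (log axis) of 12 of the genes in each control and TAA library, with a bar at the group mean. The fibrinogen chains and C4bp are highest at 24 h, F7, F10, Proz and F13b are low at both times, the 3 chains of C8 follow different courses, and Cfp is highest at 48 h.

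Leaving out 1 liver library took between 1 and 8 genes off the 26 that fell at 24 h and up to 7 off the 33 that fell at 48 h. The calls lost at 24 h were those of C2, C4b, C8b, Cfb, Cpb2, Masp1, Serping1 and Vtn, with the lowest count (18) without TAA 24 h replicate 1. Those lost at 48 h were C4b, Fgg, Hc, Klkb1, Kng1, Masp1, Serpind1 and Serpinf2, besides that of C4bp. With library totals alone, the falls of C2, C4b, C8b, Cfb, Cpb2, Masp1, Serping1 and Vtn at 24 h did not pass, and at 48 h the same held for C2, C4b, C4bp, C8b, C9, Cfb, Cfi, Cpb2, Fgg, Hc, Klkb1, Kng1, Masp1, Serpind1, Serpinf2 and Vtn.

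Between the 2 TAA times few members differed by the test. Of the 41, 0 were higher and 2 lower at 48 h than at 24 h, beside 4.96% and 2.36% of all tested genes, 7.33% together. At an unadjusted p under 0.05, 4 were higher and 17 lower. All tested genes were not counted at that threshold, so these counts cannot be read as particular to the 41. DESeq2 called 2 of the 41 higher and 11 lower, beside 1006 higher and 539 lower of 13497 tested genes. C4bp changed by -1.21 ± 0.13 (adjusted p = 0.0121) and C9 by -0.84 ± 0.18 (adjusted p = 0.0447), and both calls were lost without any 1 of the 4 TAA libraries. Proz, at 159 and 172 CPM at 24 h and 225 and 234 at 48 h, differed by 0.48 ± 0.11 (adjusted p = 0.0572), and Cfp by 1.18 ± 0.28 (adjusted p = 0.0562). For Fgg, whose 4 libraries did not overlap between the times, the difference was -1.25 ± 0.31 (adjusted p = 0.0599). Of all tested genes, 32.0% did not overlap between the times and were higher at 48 h, and 30.0% were lower. Fga and Fgb, whose libraries did not overlap between the times either, differed by -1.26 ± 0.44 and -1.08 ± 0.40 and did not pass. Kng1 (-0.80 ± 0.25), Cpb2 (-0.47 ± 0.14) and C1ra (-0.45 ± 0.18) had the smallest p of their role groups and did not pass. With library totals alone, 4 were higher and 1 lower, beside 1281 and 181 of 13497 tested genes.

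Gene lists outside the 41 gave the setting of these changes in the livers. Of 19 acute phase markers 12 rose and 3 fell at 24 h, and 5 rose and 3 fell at 48 h, and between the times 0 were higher and 7 lower. Saa3, a serum amyloid A gene, went from 5.47 and 3.11 CPM to 467 and 431 at 24 h and 54.2 and 70.0 at 48 h, and Lcn2, an iron-binding acute phase protein, rose by 6.42 ± 0.53 at 24 h. Of 18 transcription factors that act on liver genes 2 rose and 8 fell at 24 h, and 2 rose and 10 fell at 48 h. Cebpa went from 358 and 344 CPM to 162 and 167 at 24 h and to 122 and 130.0 at 48 h, and Foxa2 changed by -1.91 ± 0.19 and -1.55 ± 0.19. Of 10 genes of the vitamin K cycle and factor secretion 0 rose and 4 fell at 24 h and 5 fell at 48 h. Among them were Vkorc1, the vitamin K reductase (-1.99 ± 0.22 at 24 h), and Ggcx, the carboxylase of the vitamin K-dependent proteins (-0.68 ± 0.12). Of 12 hepatocyte markers 1 rose and 4 fell at 24 h, and 0 rose and 5 fell at 48 h, with medians of -0.78 and -0.79, and their part in the falls of the 41 genes was not tested.

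The remaining genes of both cascades moved otherwise. Of 34 other complement genes listed, 29 were tested in livers, and of these 10 rose and 10 fell at 24 h and 12 rose and 10 fell at 48 h. Itgam, the alpha chain of complement receptor 3, and C3ar1, the C3a receptor, rose by 4.04 ± 0.37 and 3.09 ± 0.29 at 24 h. Of 34 other coagulation and fibrinolysis genes 32 were tested, and 20 rose and 4 fell at 24 h and 17 rose and 7 fell at 48 h. F13a1, A2m and Serpinb2 had at most 1 count over both controls, and such genes could pass the filter only through the TAA libraries, so these counts are a description. Anxa2, part of a cell-surface receptor for plasminogen, went from 6.29 and 5.41 CPM to 182 and 195 at 24 h and 322 and 318 at 48 h, and Plau, urokinase, which makes plasmin, rose by 4.99 ± 0.36 at 24 h. Thbs1, thrombospondin, rose by 5.81 ± 0.28. Beside these counts, 9 and 10 of 12 endothelial markers and 11 and 12 of 12 stellate cell markers rose at 24 h and 48 h, and what part those cells had was not tested. Few of the rarer markers passed the filter on low counts (7 of 9 biliary, 3 of 11 neutrophil, 3 of 9 platelet, 2 of 10 lymphocyte and 2 of 5 red cell genes), and several that did were at or near 0 in the controls, so their calls are not counted here. Summed over each whole list, neutrophil markers stood at 0.468 and 0.15 RPM in the controls, 9.66 and 6.43 at 24 h and 11.1 and 9.02 at 48 h. Platelet markers stood at 2.498 and 1.20 RPM in the controls, 6.79 and 6.79 at 24 h and 15.5 and 15.7 at 48 h. Lymphocyte markers stood between 0.451 and 4.04 RPM, red cell markers between 9.65 and 28.3 RPM and biliary markers between 53.6 and 309 RPM over the 6 livers.

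In peritumoral hepatocytes few of the 41 genes differed from untreated hepatocytes (n = 3 each). Cfp and Pros1 rose, F11 fell and the other 38 did not pass, beside 19.0% of 13442 tested genes that rose and 10.2% that fell. The median log2 fold change of the 41 was -0.23, against -0.02 over all tested genes, and 30 of the 41 estimates lay below 0. Without peritumoral replicate 2 the median was 0.11, and Cfp, Pros1 and F11 passed together with Mbl2. Without untreated replicate 3 it was 0.08. The spread was wide: the highest peritumoral library stood a median of 2.67 times above the lowest over the 41 genes, against 1.89 times in untreated hepatocytes, 1.10 in control livers and 1.20 and 1.15 in the TAA livers.

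Properdin showed the largest difference of the 41. Cfp stood at 14.5, 13.7 and 11.2 CPM in untreated and 68.5, 135 and 220.0 CPM in peritumoral hepatocytes, 10.8-fold higher (3.43 ± 0.43, adjusted p = 0.00423). The groups did not overlap, and the call held when any 1 of the 6 libraries was left out. The summed level of 13 macrophage markers was 587, 600 and 402 RPM in the untreated and 1856, 3003 and 5039 RPM in the peritumoral libraries, and 10 of the 13 rose and 0 fell. The 11 neutrophil markers summed to 3.76 to 7.30 RPM in untreated and 24.5 to 51.8 RPM in peritumoral libraries. Ly6g had 0 counts in the untreated and 1 in the peritumoral group. Their part in the rise of Cfp was not tested.

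Pros1, protein S, stood at 56.4, 52.0 and 66.1 CPM in untreated and 97.7, 83.0 and 115 CPM in peritumoral hepatocytes. The groups did not overlap, and the log2 fold change was 0.76 ± 0.18 (adjusted p = 0.0223). Peritumoral replicate 2, lowest for most members, was here above all untreated libraries. Protein S is also made by endothelial cells, and of 12 endothelial markers 12 rose, from 202 to 349 RPM in sum to 1123 to 1797 RPM, whose part was not tested. F11 stood at 173, 169.67 and 206 CPM in untreated and 98.3, 50.1 and 115 CPM in peritumoral hepatocytes (-1.06 ± 0.31, adjusted p = 0.0422), again without overlap. The call on Pros1 was lost without peritumoral replicate 3 or untreated replicate 1 or 2 (adjusted p = 0.0673 to 0.100). That on F11 was lost without peritumoral replicate 1 or any 1 of the untreated libraries (adjusted p = 0.0694 to 0.130), with RLE factors (adjusted p = 0.0509) and with no filter on low counts (adjusted p = 0.0514).

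Groups did not overlap for 3 more members, none of which passed, beside 25.0% of all tested genes that did not overlap and were higher and 24.5% that were lower. F5 stood at 831, 681 and 919 CPM in untreated and 577, 361 and 624 CPM in peritumoral hepatocytes (-0.64 ± 0.29, adjusted p = 0.142). C4bp stood at 666, 754 and 1039 CPM against 616, 211 and 625 CPM (-0.76 ± 0.45, adjusted p = 0.242). Hc, at 1674, 1852 and 2741 CPM against 1516, 467 and 1549 CPM, was the remaining one (-0.83 ± 0.54, adjusted p = 0.286). Masp1 had the smallest p of the initiation genes, with 140.0, 116 and 140.3 CPM against 80.2, 63.2 and 119 CPM, which overlapped (-0.60 ± 0.25, adjusted p = 0.115), and it passed without peritumoral replicate 3 (adjusted p = 0.0339). Serpinf2 had that of the serpins and fibrinolysis genes, at 1154, 979 and 1379 CPM against 1120, 393 and 1030.0 CPM (-0.47 ± 0.44, adjusted p = 0.458).

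Among the terminal genes C9 varied most. It stood at 717, 925 and 1964 CPM in untreated and 750, 26.0 and 187 CPM in peritumoral hepatocytes, a 28.8-fold range within the peritumoral group, and did not pass (-1.90 ± 1.06, adjusted p = 0.219). C6 stood at 144, 217 and 533 CPM against 328, 58.1 and 239 CPM, and C8a at 936, 1005 and 1896 CPM against 1176, 185 and 901 CPM. For C6, C8a and C9 peritumoral replicate 2, the library with Xist, was the lowest of the 6. Without it the estimates were -1.30 for C9, -0.01 for C6, -0.24 for C8a, -0.21 for C8b and -0.39 for Hc, closer to 0 than with it, and 0.79 for C8g, farther from 0 than the 0.32 with it. Of the fibrinogen chains Fga stood at 5862, 5112 and 9387 CPM against 6969, 2528 and 5434 CPM, and its estimate of -0.45 ± 0.77 was smaller than its standard error. Fgb (-0.59 ± 0.72) and Fgg (-0.34) did not pass either. Mbl2, at 228, 236 and 321 CPM against 398, 118 and 488 CPM, passed only without peritumoral replicate 2 (0.81, adjusted p = 0.0366).

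**Figure D4:**
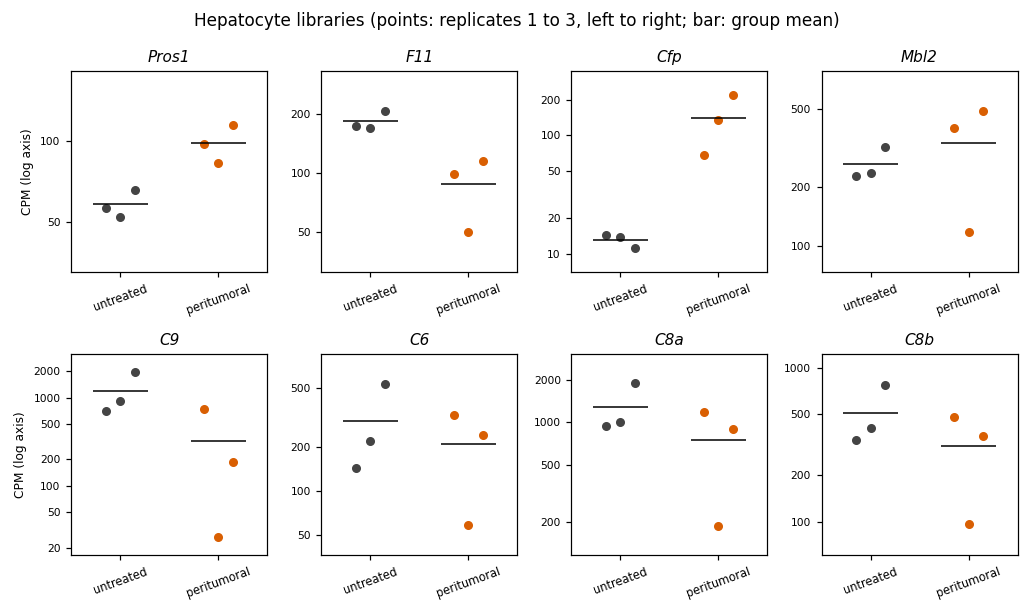
CPM (log axis) of 8 of the genes in the 3 untreated and 3 peritumoral hepatocyte libraries (replicates 1 to 3 from left to right, bar: group mean). Pros1 and Cfp lie higher and F11 lower in every peritumoral library, while the middle peritumoral point (replicate 2) is the lowest for Mbl2, C9, C6, C8a and C8b.

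Of 34 other complement genes listed 27 were tested in hepatocytes, and 14 rose and 2 fell. Fcna, ficolin A of macrophages, stood at 143, 148 and 287 CPM in peritumoral against 17.9, 21.1 and 15.6 CPM in untreated hepatocytes, and C1qa, a chain of C1q, at 126, 182 and 341 against 26.2, 20.9 and 16.0 CPM. Of 32 other coagulation and fibrinolysis genes 14 rose and 0 fell, among them Serpine2, a thrombin and plasmin inhibitor of the cell surface (5.20 ± 0.41), and Serpinb2, a urokinase inhibitor (5.40 ± 0.54). Of the 10 vitamin K cycle and secretion genes 0 rose and 4 fell, with Furin, which trims propeptides, at 251, 197 and 208 against 455.5, 386 and 542.5 CPM, and Lman1, a cargo receptor for clotting factors, at -1.09 ± 0.25. Of 18 transcription factors 2 rose and 1 fell (Cebpd 2.43 ± 0.27, Rela 0.56 ± 0.12 and Nr5a2 -0.52 ± 0.14), and of 19 acute phase markers 4 rose and 0 fell, including Socs3, the STAT3 feedback inhibitor (1.77 ± 0.31). Of 12 hepatocyte markers 0 rose and 1 fell, with a median of -0.83. Beside them 10 of 12 stellate cell markers rose and 0 fell. Summed levels in untreated and peritumoral libraries were 2.46 to 3.38 and 11.4 to 16.4 RPM for platelet, 1.29 to 2.46 and 4.45 to 12.2 RPM for lymphocyte and 80.1 to 144 and 10.9 to 82.1 RPM for red cell markers.

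The peritumoral response was set against each TAA response in 1 fit of all 12 libraries, as the difference of the 2 log2 fold changes. Against TAA 24 h, 3 members differed, beside 21.1% of 14615 tested genes (9.03% higher and 12.1% lower), and against TAA 48 h 4 did, beside 15.3% (6.71% higher and 8.57% lower). In all of these the peritumoral value was the higher. F7 differed by 1.53 ± 0.39 (adjusted p = 0.0234) from the 24 h and 1.66 ± 0.39 (adjusted p = 0.0241) from the 48 h response. Its untreated libraries, at 96.8, 82.9 and 145 CPM, overlapped its peritumoral libraries, at 111, 70.4 and 131 CPM. F13b differed by 1.74 ± 0.48 and Pros1 by 1.02 ± 0.24 from the 24 h response. F10 (1.81 ± 0.48), F12 (1.57 ± 0.44) and C8g (3.11 ± 0.80) differed from the 48 h response. Mouse stock and kind of sample differ between the hepatocyte and liver libraries in this contrast and cannot be told apart from the treatments. The same holds for sex-linked transcripts, apart from peritumoral replicate 2, which held Xist and no Ddx3y reads as the livers did. The counts rested on single libraries: without peritumoral replicate 2, 18 members differed from the 24 h and 21 from the 48 h response. Without untreated replicate 3, 8 and 10 did, and without either control liver at most 1 did. The calls over all tested genes moved as well. Without peritumoral replicate 2, 1835 of 14154 were higher and 2392 lower against 24 h, and 1585 and 1854 against 48 h. Without untreated replicate 3 these were 1703 and 2478 of 14419, and 1476 and 2144. With library totals alone, 7 were higher and 2 lower against 24 h, beside 908 and 1578 of 14615 tested genes. Against 48 h 4 were higher and 1 lower, beside 541 and 1919 tested genes.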

How the data were processed

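Raw read counts per gene were deposited by the authors as 1 whole-number table for all 12 libraries. STAR, DESeq2 and the builds mm10 and GRCm38 are named per the submitters' processing notes, and no version, annotation, counter or strand setting is named there. The deposited RPM values were not used, and RPM here means counts scaled by the library total alone. Of 41128 gene identifiers, 97.9% were in GENCODE M21, which gave coordinates and exon lengths. A count of 3 equals 0.162 to 0.311 CPM, and precision at that floor covers counting error only.

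Counts were fitted with edgeR 4.0.16 in R 4.3.3 (quasi-likelihood F test, TMM factors, filterByExpr at min.count 10 and min.total.count 15, prior count 0.125), once for hepatocytes (13442 genes), once for livers (13497) and once for all 12 libraries (14615) to contrast responses. P-values were Benjamini-Hochberg adjusted over all genes tested, with 0.05 as the threshold. The value after ± is the standard error of a log2 fold change. It was derived from the test, as the absolute log2 fold change over the square root of its F statistic. The fit was tested on simulated counts. Alternatives were RLE factors, no low-count filter, DESeq2 1.42.0, the replicate number as a block and each library left out, plus, chosen after seeing the data, no normalization factors and legacy quasi-dispersions.

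Every member is named by role, and each comparison gives library values for up to 12 called members of smallest p and for the smallest p of each role group, and up to 3 genes of each other list. The members and lists were chosen with earlier results of these data known.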

Additional observations from a re-analysis of the deposited data

Results flagged for a closer look

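Each of the following is a difference between the peritumoral and a TAA response, in log2 units, that passed the test of the difference itself (edgeR, all 12 libraries, adjusted p under 0.05). Against the 24 h response these were F7 at 1.53, Pros1 at 1.02 and F13b at 1.74. Against the 48 h response they were F7 at 1.66, F10 at 1.81, F12 at 1.57 and C8g at 3.11. The peritumoral change was the higher in all 7. Mouse stock, kind of sample and sex-linked transcripts cannot be told apart from the treatments in this contrast. The calls on F7 were lost without untreated replicate 1 or 2, either control or either library of the TAA time concerned (adjusted p = 0.0517 to 0.095 at 24 h and 0.0561 to 0.0975 at 48 h). That on Pros1 was lost without control replicate 1 or TAA 24 h replicate 1 (0.066 to 0.109). Those on F13b, F10 and F12 were each lost in 10 of 12 leave-outs, and that on C8g in 8 of 12 (0.0505 to 0.139 over the 4 calls).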

How the results depend on the processing

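The number of members that fell after TAA was 26 at 24 h (18 to 25 with 1 library left out) and 33 at 48 h (26 to 33), and with no normalization factors the latter was 17. The number that rose was 3 at 24 h (5 with DESeq2, 7 with no normalization factors, 0 to 2 with a library left out) and 1 at 48 h (4 with no normalization factors, 1 in each leave-out). Between 48 h and 24 h, 0 were higher (2 with DESeq2, 1 with legacy quasi-dispersions, 4 with no normalization factors, 0 to 1 with a library left out) and 2 lower (11, 5 and 1 in the same order, 0 to 3 with a library left out). In peritumoral hepatocytes 2 rose (1 to 3 with a library left out) and 1 fell (0 with RLE factors, 0 with no filter on low counts, 0 to 2 with a library left out). The number whose response differed was 3 against TAA 24 h (13 with DESeq2, 6 with RLE factors, 9 with no normalization factors, 0 to 18 with a library left out) and 4 against TAA 48 h (13 with DESeq2, 0 to 21). The number of all tested genes that passed shifted with these settings too. Against TAA 24 h, DESeq2 called 2072 of 14615 higher and 1945 lower, and RLE factors gave 1522 and 1550. Against TAA 48 h, DESeq2 called 1608 higher and 1645 lower. For TAA 24 h against the controls, DESeq2 called 2704 of 13497 higher. The cause of these shifts was not tested, except that leave-outs hold fewer samples. With no normalization factors, estimates that passed with or without the factors and changed sign were Cpb2 at 24 h (0.06) and, at 48 h, F11 (0.46), C8a (0.55) and C4bp (0.05), and others that passed neither way, Fga and Fgb at 48 h among them, also changed sign.

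Groups share replicate numbers in the labels, which say nothing of a shared animal or day. Deviations of same-numbered libraries correlated at -0.223, 0.165 and 0.105 in hepatocytes and 0.023 to 0.027 in livers, so the numbers were not taken as pairs. With the replicate block, 1 member was higher at 48 h than at 24 h (Cfp, 1.15, adjusted p = 0.0203), beside 632 of 13497 tested genes. With this block 8 members differed between the peritumoral and the 24 h response, beside 1328 higher and 1538 lower of 14615 tested genes. With it C8a (0.50, adjusted p = 0.0629) and Cpb2 (adjusted p = 0.0625) at 24 h and Fgg at 48 h (adjusted p = 0.0688) did not pass, and Hc at 24 h did (-1.18, adjusted p = 0.0437). Proc and F13b also passed in the contrast with the 48 h response (adjusted p = 0.0416 and 0.0197), and the block changed no other call on a member.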

Other observations

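Terminal complement stood at other levels in the purified hepatocytes than in the livers, on 1 scale of CPM per kb of exon over all 12 libraries. C6, which binds C5b to start the pore, was at 78.3 CPM per kb in untreated hepatocytes (39.7 to 135.9) and 3.10 in control livers (2.67 to 3.52). Hc was at 315 against 152, C8a at 331 against 142, C8b at 187 against 73.8 and C9 at 441 against 174. C8g went the other way, at 162.5 in untreated hepatocytes and 270.2 in control livers. Mouse stock, kind of sample and sex-linked transcripts differ together between these groups and cannot be told apart, so no test is given.

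In livers Hc varied most within the 24 h group, by 3.64-fold between its 2 libraries, where the median member varied by 1.20-fold. Without TAA 24 h replicate 2 its fall at 24 h passed (adjusted p = 0.0188).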
